A study of Mus musculus with 6 samples.

Results

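The genes that coat cytosolic lipid droplets and release fat from them were examined in the proximal jejunum of ob/ob and wild type (WT) mice. The 10 genes were taken by name for their known roles and not by a rule on their values, though earlier results of these data were known. All 10 were found among the 23420 genes of the count table. They are *Plin2*, *Plin3*, *Plin5*, *Cideb*, *Fitm2*, *Pnpla2*, *Abhd5*, *Mgll*, *G0s2* and *Hilpda*. A total of 9 passed the filter on low values, above 1 CPM (a read count scaled to the library total) in at least 3 libraries, and *Plin5* did not. ob/ob mice carry no functional leptin and overeat, and their controls were C57BL/6J mice, which the study does not describe as their littermates. By the study's general methods, mice were males and were fasted for some hours before sacrifice unless stated otherwise. There were 3 libraries per group, each of RNA from whole washed pieces of proximal jejunum of 1 cm, pooled from 2 jejuna. The p-values thus reflect variation between pools. The age of these mice is not stated.

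Enterocytes rebuild triglycerides from dietary fatty acids and monoglycerides, and either export them in chylomicrons or hold them for a time in cytosolic lipid droplets. Perilipins and CIDE proteins sit on the droplet surface and govern access to the stored fat. Adipose triglyceride lipase starts its hydrolysis together with a co-activator and is held back by small inhibitor proteins, and monoglyceride lipase completes it.

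The libraries held 14661981 to 18286080 counts, and the first principal component of log2 CPM separated ob/ob from WT. Enterocyte markers were abundant in every library: the summed level of 12 of them was 77597 to 86514 CPM in ob/ob, against 63056 to 73408 CPM in WT libraries, without overlap. Of the 12, 10 had positive log2 fold changes (ob/ob over WT), and *Lct* (-0.21) and *Anpep* (-0.15) had negative ones. The edgeR test called 2 of the 12, *Fabp2* and *Alpi*, where 5.67% of all tested genes were called. Their calls were lost in 6 and 10 of 16 alternatives. The 4 endothelial markers summed to 40.3 to 47.7 CPM in ob/ob, against 57.2 to 64.6 CPM in WT, without overlap. Of these, 1 was called, beside the 5.67% of all tested genes. It was *Kdr*, a receptor for vascular endothelial growth factor, which was lower in ob/ob (log2 fold change -0.70 ± 0.12, SE, edgeR adjusted p = 0.0158). Its call held in all 16 alternatives. The sums of 7 macrophage and of 6 smooth muscle markers overlapped between the groups. In whole tissue, fewer cells of a type and less RNA per cell cannot be told apart.

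None of the lipid droplet genes passed the test between ob/ob and WT. The edgeR quasi-likelihood test called 0 of the 9 tested genes at an adjusted p of 0.05, where 5.67% of all 13168 tested genes were called, 3.77% of them higher and 1.91% lower in ob/ob. At an unadjusted p of 0.05, 3 of the 9 were past the threshold, against 25.9% of all tested genes. The likelihood ratio test of edgeR called 1 of the 9, where it called 10.7% of all genes. DESeq2 called 2 of the 7 members to which it gave an adjusted p, where it called 8.42% of all such genes, and limma-voom called 0 of the 9, where it called 5.32% of all genes. The groups did not overlap for 4 of the 9 genes, and the same was true of 32.0% of all tested genes. The median log2 fold change (ob/ob over WT) of the 9 was -0.04, with a range of -0.46 to 0.22, beside -0.01 for all tested genes. The edges of the range were *Mgll* on the lower side and *Plin3* on the upper.

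The levels of the 10 genes spanned a wide range, compared as TMM-scaled CPM per kilobase of exon. *Cideb* and *Plin3* were highest, with means over all libraries of 99.1 and 96.2 CPM per kilobase and overlapping ranges. *Pnpla2* at 24.9 and *Plin2* at 22.4 CPM per kilobase followed, again with overlapping ranges. *Abhd5* stood at 4.59, *Mgll* at 2.79 and *Fitm2* at 1.74 CPM per kilobase, and the ranges of these levels over the 6 libraries did not overlap. *Fitm2* overlapped with *Hilpda* at 1.22, and *Hilpda* with *G0s2* at 1.10 CPM per kilobase. *Plin5* came last, at 0.0673 CPM per kilobase. Together the 10 genes took 0.0686 to 0.0738% of all counts, and *Plin3* alone supplied 46.3 to 53.8% of the counts of the 10. The related coat gene *Cidec*, best known from fat cells, lay between these steps at 44.9 CPM per kilobase, while *Cidea* stood at 0.109 CPM per kilobase. *Plin1*, the main coat protein of fat cells, averaged 0.0431 ± 0.0449 CPM per kilobase over ob/ob libraries, against 0.869 ± 1.03 over WT libraries (SD, n = 3 each).

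**Figure D1:**
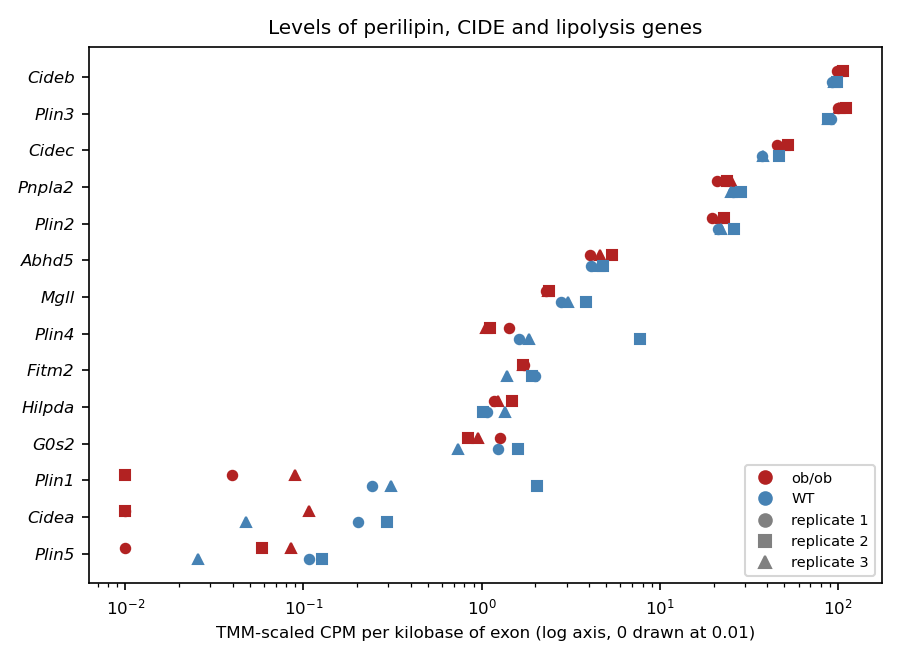
Level of the lipid droplet genes and of their relatives *Plin1*, *Plin4*, *Cidea* and *Cidec* in TMM-scaled CPM per kilobase of exon (log axis), each point a library, ob/ob above WT within each gene and marker shape the replicate number. *Cideb* and *Plin3* lay between 87.2 and 111 CPM per kilobase in every library, and *Plin5* at 0.126 or below.

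*Plin3* encodes the perilipin that moves from the cytosol onto newly formed droplets, and in mouse enterocytes it is found on them after a fat load. Its level was 377, 419 and 381 CPM in ob/ob libraries, against 345, 330 and 332 CPM in WT libraries. All 3 ob/ob libraries lay above all 3 WT libraries. Mean levels were 392 ± 23.3 CPM for ob/ob, against 336 ± 8.34 CPM for WT (SD, n = 3 each). The log2 fold change was 0.22 ± 0.06 (SE), or 16.8% with a 95% interval of 5.70 to 29.2%, and the edgeR adjusted p of 0.0698 missed the threshold. DESeq2 placed *Plin3* past it, with an adjusted p of 0.0328. The gene lies on chromosome 17 of GRCm38, from 56277476 to 56292873 on the minus strand.

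*Plin2* encodes the perilipin that stays on droplets and is degraded when it is not bound to them. It stood at 68.9, 80.8 and 77.6 CPM in ob/ob, against 74.7, 91.4 and 77.8 CPM in WT libraries. The groups overlapped, with the second WT library the highest of the 6. The log2 fold change of -0.10 ± 0.09 (SE) gave an edgeR adjusted p of 0.517, and its 95% interval ran from -0.30 to 0.10. Without the second WT library the log2 fold change was -0.01 with an edgeR adjusted p of 0.959. The ratio of *Plin3* to *Plin2* counts was 5.47, 5.19 and 4.91 in ob/ob, against 4.62, 3.61 and 4.26 in WT libraries, without overlap, and is given as a description of raw counts with no test. The gene lies on chromosome 4, from 86648386 to 86670060 on the minus strand.

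*Cideb*, whose protein acts in the lipidation of very low density lipoproteins in mouse liver and of chylomicrons in mouse intestine, had 147, 160 and 152 CPM in ob/ob libraries, against 138, 146 and 142 CPM in WT libraries. The lowest ob/ob library was just above the highest WT library. The log2 fold change was 0.11 ± 0.06 (SE), with an edgeR adjusted p of 0.285. *Cideb* shares 76.3% of its exon bases with *Nop9* on the opposite strand, and the sources used here do not state if reads were counted by strand. Its counts could therefore hold reads of that neighbour, which had 305, 279 and 306 counts in ob/ob, against 302, 235 and 325 counts in WT libraries. *Cideb* itself had 2222 to 2670 counts. The gene lies on chromosome 14, from 55754050 to 55758458.

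*Plin5*, the perilipin of oxidative tissues such as heart, had 0, 2 and 3 counts in ob/ob, against 4, 4 and 1 counts in WT libraries. These counts are at the detection limit, taken as 3 counts in a library or 0.159 to 0.198 CPM, and no difference was detectable at this depth. *Fitm2* encodes a protein of the endoplasmic reticulum that is needed for droplets to bud. Its level was 6.89, 6.75 and 6.72 CPM in ob/ob, against 7.94, 7.65 and 5.48 CPM in WT libraries. The ob/ob values lay inside the range of the WT values, and the log2 fold change of -0.04 ± 0.16 (SE) had an edgeR adjusted p of 0.887.

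**Figure D2:**
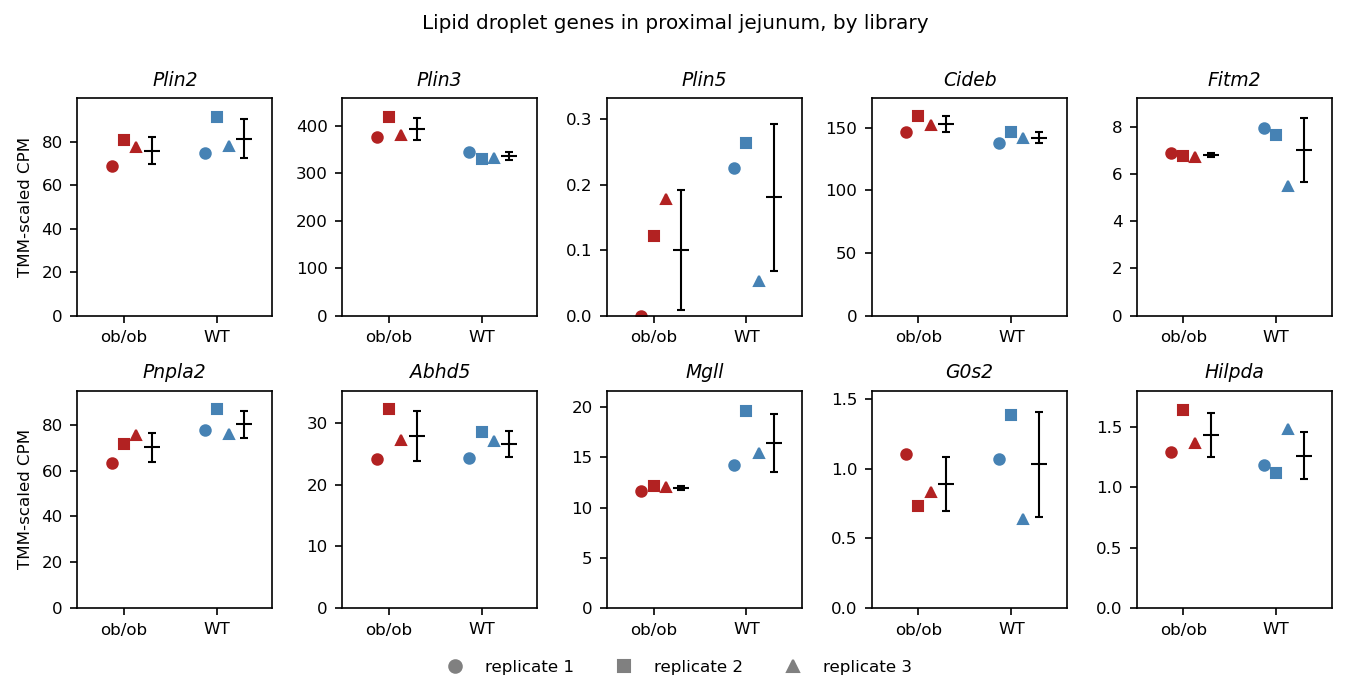
TMM-scaled CPM of the 10 lipid droplet genes (vertical axes from 0), with ob/ob left of WT, a marker for each library and the mean ± SD (n = 3) in black. *Plin3* and *Cideb* were higher in all 3 ob/ob libraries than in any WT library, *Mgll* and *Pnpla2* lower, and *Plin5* did not exceed 0.264 CPM.

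*Pnpla2* encodes adipose triglyceride lipase, the enzyme that removes the first fatty acid from a stored triglyceride. It had 63.2, 71.8 and 75.6 CPM in ob/ob libraries, against 77.8, 86.7 and 75.9 CPM in WT libraries. The groups did not overlap, but the gap between the highest ob/ob and the lowest WT library was narrow, at 75.6 and 75.9 CPM. The log2 fold change was -0.19 ± 0.08 (SE), or -12.3% with a 95% interval of -22.9 to -0.354%, and its unadjusted p of 0.0451 became an adjusted p of 0.183 in edgeR.

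*Abhd5* encodes CGI-58, the co-activator of that lipase. Its level was 24.2, 32.3 and 27.3 CPM in ob/ob, against 24.4, 28.5 and 27.2 CPM in WT libraries. The groups overlapped, and the log2 fold change was 0.07 ± 0.11 (SE) with an edgeR adjusted p of 0.745. Its sign turned without the second ob/ob library, to -0.05. The ratio of *Abhd5* to *Pnpla2* counts was 0.383, 0.450 and 0.361 in ob/ob, against 0.314, 0.329 and 0.359 in WT libraries, which is again a description with no test. The lowest ob/ob ratio and the highest WT ratio nearly met. *Abhd5* shares 16.0% of its exon bases with the opposite-strand gene *A730085K08Rik*.

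*Mgll* encodes monoglyceride lipase, which cleaves the last fatty acid from glycerol and also breaks down the endocannabinoid arachidonoylglycerol. It had 11.7, 12.1 and 12.0 CPM in ob/ob libraries, against 14.2, 19.6 and 15.5 CPM in WT libraries. All 3 ob/ob libraries lay close together and below all 3 WT libraries, of which the second was the highest. Mean levels were 11.9 ± 0.214 CPM for ob/ob, against 16.4 ± 2.85 CPM for WT (SD, n = 3 each). The log2 fold change was -0.46 ± 0.13 (SE), or -27.1% with a 95% interval of -40.2 to -11.2%, and the edgeR adjusted p of 0.0645 missed the threshold. *Mgll* was the gene of the 10 whose call depended most on the method. Its adjusted p was 0.0233 in the likelihood ratio test of edgeR, 0.0490 in DESeq2 and 0.0379 in the edgeR quasi-likelihood test without the first WT library, and over all alternatives it lay between 0.00871 and 0.170. The gene lies on chromosome 6, from 88724412 to 88828360 on the plus strand.

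*G0s2* and *Hilpda* encode small proteins that bind and inhibit adipose triglyceride lipase. Both were close to the filter. *G0s2* had 18, 12 and 14 counts in ob/ob, against 19, 21 and 12 counts in WT libraries. *Hilpda* had 21, 27 and 23 counts in ob/ob, against 21, 17 and 28 counts in WT libraries. Both sets of values overlapped between the groups. The log2 fold change of *G0s2* was -0.19 ± 0.33 (SE) with an edgeR adjusted p of 0.760, and that of *Hilpda* was 0.17 ± 0.23 (SE) with an edgeR adjusted p of 0.691. The 95% intervals, -47.8 to 47.9% for *G0s2* and -20.9 to 60.6% for *Hilpda*, leave changes of a size seen elsewhere among the 10 genes undetectable at this depth.

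**Figure D3:**
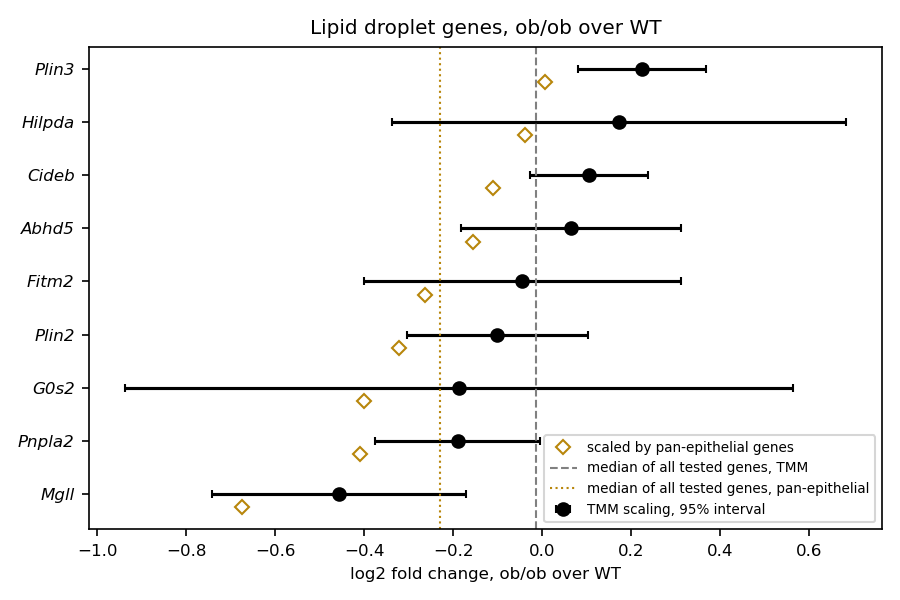
Log2 fold change (ob/ob over WT) of the 9 tested lipid droplet genes, with filled points and 95% intervals under TMM scaling and open diamonds under scaling by pan-epithelial genes; vertical lines mark the median of all tested genes, -0.01 under TMM and -0.23 under pan-epithelial scaling. *Plin3* and *Mgll* have intervals clear of 0 under TMM, while the edge of the *Pnpla2* interval lies at -0.01, and under pan-epithelial scaling every value moved to the left.

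The scaling moved the members together with all other genes. All 12 pan-epithelial genes had positive log2 fold changes, with a median of 0.17. The edgeR test called 2 of them, *Cdx2* and *Krt20*, where 5.67% of all tested genes were called. Their calls were lost in 7 of 16 alternatives each. Among these alternatives is the scaling to this same list, of which both genes are part. Scaled to the 12 genes, the median of all tested genes was -0.23 and 31.3% of all genes were called. Among the members edgeR then called *Plin2* (log2 fold change -0.32, adjusted p = 0.0279), *Pnpla2* (-0.41, adjusted p = 0.0103) and *Mgll* (-0.68, adjusted p = 0.00871) lower in ob/ob. Relative to the median of all genes the values barely moved: *Mgll* stood at -0.44 under TMM and at -0.45 under pan-epithelial scaling, and *Plin3* at 0.24 under both. *Plin3* itself was at 0.01 under pan-epithelial scaling, and *Cideb*, *Abhd5* and *Hilpda* turned negative.

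Fat cell markers also differed between the libraries and are set beside the lower members. *Pnpla2* and *Mgll* are known to be abundant in adipocytes. Of 8 adipocyte markers 7 were tested. The edgeR test called 2 lower in ob/ob, *Cfd* and *Car3*, where 5.67% of all tested genes were called. *Cfd* had 2, 1 and 8 counts in ob/ob, against 123, 630 and 121 counts in WT libraries. It passed the filter through the WT libraries alone, so its p is not given. The call of *Car3* was lost when any of the 3 ob/ob libraries was left out (edgeR adjusted p of 0.0901 to 0.118). It was also lost in limma-voom (adjusted p = 0.147). *Cfd* encodes adipsin, a protein secreted by fat cells, and *Car3* a carbonic anhydrase abundant in them. *Adipoq*, the gene of the fat cell hormone adiponectin, was at 1.05, 0 and 0.833 CPM in ob/ob libraries, against 4.34, 26.8 and 2.71 CPM in WT libraries. The second WT library was the highest of the 6 for *Adipoq*, *Plin1*, *Cfd*, *Car3*, *Plin4* and *Retn*, and these markers together summed to 6.57 to 11.7 CPM in ob/ob, against 32.1 to 217 CPM in WT libraries. The sum of all 8 was 228 to 263 CPM in ob/ob, against 253 to 470 CPM in WT. *Cidec* and *Lipe* made up most of it in every library, so the sum without them was set apart after their values had been seen. They did not share the lower levels of the other markers: the log2 fold change was 0.28 ± 0.09 for *Cidec* (SE, edgeR unadjusted p = 0.0135, adjusted p = 0.0979) and -0.07 ± 0.08 for *Lipe* (SE, adjusted p = 0.641). *Adipoq*, *Plin1* and *Retn* had 0 counts in the second ob/ob library.

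The same WT library was the highest for *Plin2*, *Pnpla2* and *Mgll*. Without it, the edgeR log2 fold change was -0.31 (adjusted p = 0.137) for *Mgll* and -0.13 (adjusted p = 0.402) for *Pnpla2*, and *Plin3* stood at 0.21 (adjusted p = 0.166). No lipid droplet gene was called then, among 8 tested, as was the case with all libraries. Of all 13039 genes tested without that library, edgeR called 295. The median log2 fold change of the 8 was 0.06. The median of -0.04 with all libraries also includes *G0s2*, which no longer passed the filter, so the medians cover different genes. The part of fat cell RNA in the values of *Mgll*, *Pnpla2* and *Plin2* was not tested.

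**Figure D4:**
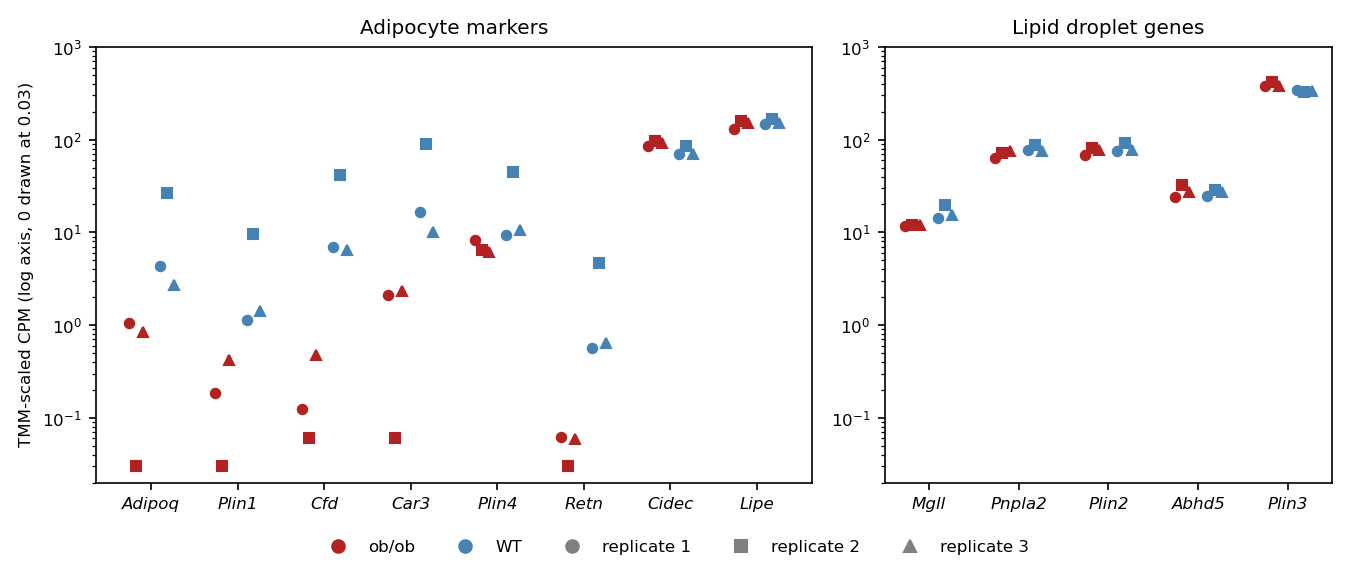
TMM-scaled CPM (log axis, a count of 0 drawn at 0.03) of 8 adipocyte markers and of 5 lipid droplet genes, ob/ob left of WT within each gene and marker shape the replicate number. The second WT library (squares) reached 26.8 CPM for *Adipoq* and was also the highest for *Mgll*, at 19.6 CPM.

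Further genes of droplet formation and fat hydrolysis were listed beside the 10. Of 15 tested genes of droplet coat and biogenesis, 2 were higher and 0 lower in ob/ob, with a median log2 fold change of 0.05, beside the 5.67% of all tested genes called. Under pan-epithelial scaling 2 of them were higher and 4 lower (median -0.16), where 31.3% of all genes were called. In the likelihood ratio test 3 were higher and 2 lower, where it called 10.7% of all genes. The 2 genes called under TMM scaling, *Dgat2* and *Dgat1*, encode enzymes that complete triglyceride synthesis. *Dgat2* had 506, 744 and 499 CPM in ob/ob libraries, against 284, 341 and 344 CPM in WT libraries, so every ob/ob library lay above every WT library. Its log2 fold change was 0.85 ± 0.15 (SE, edgeR adjusted p = 0.0193). *Dgat1* stood at 985 ± 42.1 CPM for ob/ob, against 808 ± 39.2 CPM for WT (SD, n = 3 each), and its log2 fold change was 0.29 ± 0.07 (SE, edgeR adjusted p = 0.0472). The call of *Dgat1* was lost in 11 of 16 alternatives, leaving out any library among them. The call of *Dgat2* was lost in 1, without the first ob/ob library (0.94, edgeR adjusted p = 0.0510). The next by p was *Hsd17b13*, a droplet protein best known in liver, at 0.81 ± 0.21 (SE, edgeR adjusted p = 0.0570). *Plin1* followed but was lower in ob/ob, with 3, 0 and 7 counts, against 20, 145 and 27 counts in WT libraries. It passed the filter through the WT libraries alone, so its p is not given.

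Of 16 other neutral lipid hydrolases, 0 passed the edgeR test, beside the 5.67% of all tested genes called. An unadjusted p under 0.05 was reached by 5 of the 16, against 25.9% of all tested genes. Their median log2 fold change was 0.13. Under pan-epithelial scaling 3 were lower, with a median of -0.10, where 31.3% of all genes were called. The likelihood ratio test called 2 higher and 1 lower, where it called 10.7% of all genes. *Ddhd2*, a triglyceride hydrolase of the brain, had the smallest p, with a log2 fold change of 0.33 ± 0.08 (SE, adjusted p = 0.0519). *Aadac*, an esterase of the endoplasmic reticulum, stood at -0.37 ± 0.10 (SE, adjusted p = 0.0655), and *Abhd6*, which like *Mgll* cleaves monoglycerides, at 0.31 ± 0.09 (SE, adjusted p = 0.0678). *Lipe*, hormone-sensitive lipase, had 132, 160 and 153 CPM in ob/ob, against 148, 167 and 151 CPM in WT libraries, with overlap between the groups. Members of the carboxylesterase family have near-identical copies, and their counts are uncertain.

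The 250 bases upstream of the RefSeq start of *Plin2*, *Plin3* and *Mgll* are shown because *Plin3* and *Mgll* were the outermost members and *Plin2* is the other abundant perilipin. Sequences are from RefSeq on GRCm38.p6, 5′ to 3′ on the strand of the gene, at chr4:86670060-86670309 (minus strand), chr17:56290512-56290761 (minus strand) and chr6:88724162-88724411 (plus strand). Capitals mark matches to the motifs spelled out after them, and *Plin3* held none. The *Plin3* window lies inside the gene span given above, which is from GENCODE. RefSeq and GENCODE thus place its outermost start differently, and only the window of the RefSeq start was searched.
Plin2: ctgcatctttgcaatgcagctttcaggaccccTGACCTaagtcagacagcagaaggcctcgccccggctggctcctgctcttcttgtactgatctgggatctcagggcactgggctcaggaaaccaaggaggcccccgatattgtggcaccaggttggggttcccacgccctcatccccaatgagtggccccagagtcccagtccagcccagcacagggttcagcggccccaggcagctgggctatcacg
Plin3: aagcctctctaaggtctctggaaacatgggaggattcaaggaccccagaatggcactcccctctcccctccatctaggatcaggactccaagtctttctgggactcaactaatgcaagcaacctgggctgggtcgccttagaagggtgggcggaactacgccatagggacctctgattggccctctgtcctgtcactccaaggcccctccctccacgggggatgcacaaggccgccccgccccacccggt
Mgll: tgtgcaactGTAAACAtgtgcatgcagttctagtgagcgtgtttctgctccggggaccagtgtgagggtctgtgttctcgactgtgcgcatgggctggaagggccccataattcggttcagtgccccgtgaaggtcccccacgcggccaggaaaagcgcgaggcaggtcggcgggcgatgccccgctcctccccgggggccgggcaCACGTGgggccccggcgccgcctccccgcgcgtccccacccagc

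The motifs were searched on both strands in the same window of 27018 genes, all 10 members among them. The nuclear receptor hexamer AGGTCA was in the windows of *Plin2* (bases 218 to 213 before the start, as its reverse complement), *Plin5* and *Abhd5*, and in 13.8% of all windows. The repeat bound by PPAR receptors, searched as that hexamer, any base and the hexamer again, was in 0 of the 10 and in 0.037% of all windows. The E-box CACGTG was in the window of *Mgll* (bases 44 to 39 before the start) and in 6.04% of all windows. ACGTG, the core bound by hypoxia-inducible factors, lies within that E-box, and was in the window of *Mgll* alone among the 10 and in 16.5% of all windows. The forkhead motif TGTTTAC was in the *Mgll* window (bases 241 to 235 before the start, as its reverse complement) and in 3.06% of all windows. A match is a description of these letters and not a site of binding.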

How the data were processed

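Total RNA of whole proximal jejunum was sequenced in 6 libraries, 3 ob/ob and 3 WT. According to the submitters' processing notes, the authors used TopHat2 with mm10 for alignment and HTSeq 0.6p1 for counting by gene symbol. The deposited counts are raw whole reads per gene, with no normalization. The authors' comparison table (fold changes and p-values) and 42 columns of per-sample values, 12 of them of samples outside the series, were not used.

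The filter required more than 1 CPM in at least 3 libraries. The test was the two-sided quasi-likelihood F-test (edgeR 4.0.16, R 4.3.3), with TMM factors, group alone in the model and Benjamini-Hochberg adjustment at 0.05. The SE was taken as the size of the log2 fold change over the square root of F, and intervals cover 95%. CPM were TMM-scaled. Exon lengths and positions came from GENCODE M21 (GRCm38, which is mm10).

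All 10 members were named. Of each further list, genes past the threshold and, up to 4 in all, those with the smallest p were eligible, and a selection is given; a gene that the rule names is not reported here. *Lipe* and *Cidea* were also named for their levels, and *Lct* and *Anpep* for their negative log2 fold changes. The members and lists were chosen with earlier results of these data known. On simulated data for ob/ob against WT with 13168 genes, edgeR made 182 calls, of which 11 were false. It found 74% of 100 genes set to 1.5-fold and 97% of 100 set to 2-fold. The changed genes were drawn from those well above the filter. The recovery thus does not cover genes near it, such as *G0s2* and *Hilpda*, or changes below 1.5-fold. Alternatives were other scalings and filters, DESeq2 1.42.0, limma-voom (limma 3.58.1), the edgeR likelihood ratio test, a replicate block and each library left out. Figures were drawn with matplotlib 3.10.9. Limits and floors cover counting error only.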

Additional observations from a re-analysis of the deposited data

How the results depend on the processing

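The lipid droplet genes called numbered 0, but 2 with library size alone as scaling (*Pnpla2* and *Mgll*, lower), 1 with upper quartile factors (*Mgll*), 3 with pan-epithelial scaling, 1 with the likelihood ratio test, 2 with DESeq2 and 3 at an unadjusted p. Leaving out a library gave 0 to 1. All genes called numbered 747, but 1735 with library size alone, 4117 with pan-epithelial scaling, 1404 with the likelihood ratio test and 3409 at an unadjusted p. They were 858 with upper quartile factors, 1066 with DESeq2 and 700 with limma-voom. With a library left out they were 122 to 674, the lowest without the first ob/ob library. The calls split into 328 higher and 1407 lower with library size alone and 257 higher and 3860 lower with pan-epithelial scaling. They split into 390 higher and 468 lower with upper quartile factors, beside 496 higher and 251 lower in the main fit.

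The median log2 fold change of the members was -0.16 with library size alone, where that of all genes was -0.13, and -0.26 with pan-epithelial scaling. It was -0.13 to 0.058 with a library left out, over the 8 or 9 members then tested. *Cideb* turned to -0.011 with library size alone and -0.11 with pan-epithelial scaling, *Abhd5* to -0.054 and -0.15, and *Hilpda* to -0.040 with pan-epithelial scaling. With a library left out, *Abhd5* ranged from -0.05 to 0.16 and *Fitm2* from -0.20 to 0.060, above 0 without the first or the second WT library. The cause was not tested. *Plin2*, *Plin3*, *Pnpla2*, *Mgll* and *G0s2* kept their direction in every alternative that tested them.

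Same-numbered libraries did not deviate together (r = -0.08, 0.07 and -0.02). The fit with a replicate block called 730 genes and 0 lipid droplet genes, with a median of -0.03. With 3 libraries per group an exact permutation test cannot give a p below 0.1, and *Plin5*, *G0s2* and *Hilpda* were limited by depth.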

Other observations

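Targets of PPARα, the nuclear receptor that drives fatty acid oxidation, and of hypoxia-inducible factors include *Hilpda* and several perilipins, and were listed without the 10 lipid droplet genes. Of 16 tested PPARα targets, 3 were higher and 0 lower in ob/ob by the edgeR test, where 5.67% of all tested genes were called. Their median log2 fold change was 0.15. Under pan-epithelial scaling 2 were higher and 3 lower, with a median of -0.07, where 31.3% of all genes were called. *Pdk4*, a kinase that restrains glucose oxidation, had 36.3, 39.7 and 23.7 CPM in ob/ob libraries, against 16.2, 16.9 and 14.5 CPM in WT libraries, with no overlap and a log2 fold change of 1.07 ± 0.17 (SE, adjusted p = 0.0141). *Creb3l3*, a transcription factor of lipid metabolism, stood at 0.45 ± 0.08 (SE, adjusted p = 0.0196), and *Slc25a20*, the mitochondrial carnitine carrier, at 0.37 ± 0.09 (SE, adjusted p = 0.0478). The call of *Slc25a20* was lost in 11 of 16 alternatives, leaving out any library among them. That of *Pdk4* was lost without the first (edgeR adjusted p = 0.0604) or the second ob/ob library (0.0502), and that of *Creb3l3* without the first (0.0513).

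Of 11 targets of hypoxia-inducible factors, 1 was higher and 0 lower, beside the 5.67% of all tested genes called. Their median log2 fold change was 0.16. Under pan-epithelial scaling 1 was higher and 2 lower, with a median of -0.06, where 31.3% of all genes were called. *Egln3*, a prolyl hydroxylase, averaged 53.0 ± 8.32 CPM over ob/ob libraries, against 38.4 ± 3.56 CPM over WT libraries (SD, n = 3 each), with an edgeR adjusted p of 0.0495 that was lost in 12 of 16 alternatives, leaving out any library among them. *Pfkfb3*, an activator of glycolysis, stood at 0.85 ± 0.23 (SE, edgeR adjusted p = 0.0626). Next by p was *Ndrg1*, which was lower in ob/ob, at -0.32 ± 0.11 (SE, edgeR adjusted p = 0.105). Of the 11 log2 fold changes, 9 were positive and 2 negative.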
